A study of Mus musculus with 23 samples.

Results

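Niacin was tested on resting CD4+ T cells from mouse spleen that carried the knockout label for Gpr109a, the niacin receptor gene now called Hcar2. The comparison holds 5 of the 23 libraries of the series, picked by the names of their columns in the deposited count table and not by any measured value. Libraries 2 and 3 came from cultures with 5 mM niacin, and libraries 1, 2 and 3 came from cultures without it. The 23 libraries hold no niacin library numbered 1 for unstimulated knockout-labelled cells. All 5 came from C57BL/6 mice labelled Gpr109a-/-. The T cells were isolated by flow cytometry as positive for CD45, CD3 and CD4 and negative for CD8, and every culture lasted 72 h in IL-2 at 30 IU/ml. No antibody against CD3 or CD28 was present, which is what unstimulated means here. For tests of a difference in the niacin response, 6 unstimulated libraries labelled wild type (3 with niacin, 3 without) and 6 knockout-labelled libraries stimulated with CD3 and CD28 antibodies (3 with niacin, 3 without) were used. The labels give no age and do not say whether the libraries of a group came from separate mice or cultures. Every p-value therefore measures the spread between libraries only, and the main model takes that spread from all 23 libraries of the series.

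Transcripts of interferon-inducible genes were lower with niacin than in libraries 1 and 2 without it, in both niacin libraries and across most of the family. Among them were Irf1, a transcription factor switched on by interferon gamma, the guanylate-binding protein genes Gbp2, Gbp8 and Gbp10, and Ifit3, which encodes an antiviral protein. Their log2 fold changes (niacin over no niacin) ran from -0.58 for Irf1 to -2.06 for Ifit3 when library 3 without niacin was left out. Genes of the non-canonical NF-kB branch (Nfkb2, Relb) and the nuclear partner gene Bcl3 were lower with niacin with and without library 3. So were genes of class I antigen presentation (H2-T23, Tap1, Tapbp). None of these differences passed an adjusted p of 0.05 in edgeR, the test the counts below refer to.

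Niacin is taken up by cells and turned into NAD through the Preiss-Handler pathway, whose first enzyme is encoded by Naprt, while the salvage enzyme encoded by Nampt starts from nicotinamide. Niacin also binds the receptor HCAR2, which couples to inhibitory G proteins and lowers cyclic AMP in fat cells and myeloid cells. Interferons act through receptors that engage Janus kinases, which phosphorylate STAT proteins. Phosphorylated STAT dimers bind the gamma-activated sequence (GAS), and a complex that contains STAT2 and IRF9 binds the interferon-stimulated response element (ISRE). The targets include the guanylate-binding proteins (GBPs) and immunity-related GTPases, which act on the membranes of intracellular pathogens, and the genes of antigen presentation.

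Hcar2 did not follow the genotype labels. It lies on chromosome 5 at 123863570 to 123865499 (coordinates of the deposited table, GRCm38). Its counts were 32 and 28 with niacin, and 17, 26 and 7 without, in cells labelled knockout. Over the series, 10 of the 11 libraries labelled knockout held Hcar2 counts, 169 in all, whereas wild-type-labelled libraries held 1 count in 1 of 12. No source used here says which part of the gene was deleted. The groups are therefore called knockout-labelled and wild-type-labelled. As levels, these were 1.37 and 1.08 CPM (a gene's counts scaled to a common, TMM-adjusted library total) with niacin and 0.610, 1.01 and 0.599 CPM without. The niacin libraries were the upper ones, and the difference was small against its error (log2 fold change 0.71, SE 0.99, unadjusted p = 0.484 by edgeR, and 0.59, SE 1.11, without library 3).

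The 5 libraries held 20604050 and 22797965 counts with niacin, and 25521210, 23217924 and 13205565 without. Library 3 without niacin was the shallowest of the series and stood apart in other ways. Of its counts, 5.11% fell on rRNA-like genes, against 1.34% to 2.90% in the other 22 libraries. In 29.7% of 9654 expressed genes it lay over 2-fold away from the mean of libraries 1 and 2. Against the mean of the other 2 libraries, which here holds library 3, the share was 7.67% for library 1 and 7.52% for library 2. For libraries of the other groups of 3 it was 0.20% to 4.29%. Its column name also lacks a tag that the other 22 carry. Counts and fold changes are therefore repeated without library 3 for the main results, and each library's own value is printed for the genes described.

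Over 16882 genes tested with all 5 libraries, edgeR's quasi-likelihood test with Benjamini-Hochberg adjustment called 0 genes higher and 0 lower, and the smallest adjusted p was 0.608. At an unadjusted p under 0.05, 215 genes (1.27%) were higher and 1128 (6.68%) lower. These counts come from a model of all 23 libraries, which borrows the spread of the other groups. An edgeR fit on the 5 libraries alone also called 0 genes. It had 61 higher and 75 lower of 14524 at an unadjusted p under 0.05. DESeq2 called 1 gene higher (Fzd7) and 6 lower (Akap1, H2-T23, 4933412E12Rik, Pml, Bcl3, Irf1). The voom test of limma, with weights for library quality, called 0 higher and 4 lower (Gbp8, Gbp10 and Samhd1 among them). It gave library 3 a weight of 0.113.

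Without library 3, edgeR again called 0 genes in either direction of 16814 tested, with a smallest adjusted p of 0.641. At an unadjusted p under 0.05, 168 genes (0.999%) were higher and 247 (1.47%) lower, so most of the 1128 lower genes did not stay below that mark. DESeq2 called 0 higher and 7 lower in this setting (Samhd1, Oasl2, Ifit3, Gbp8, Gbp10 and Irf1 among them), and voom called the same 4 as before. A fit on the compared groups alone called 0 higher and 9 lower (Ifit3, Iigp1, Gbp10, Gbp2, Gm12250, Gbp8, Ifit1, Rtp4, Gbp4). The fits of these other tools without library 3 were added after the data had been seen. The genes called in these fits are known as interferon-inducible.

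The interferon gamma and GBP list had 28 members, and all were tested. With all 5 libraries, 13 of the 28 were lower at an unadjusted p under 0.05 (6.68% of all genes) and 0 higher, with a median log2 fold change of -0.65 against 0.01 over all genes. Without library 3, 24 of the 28 were lower (1.47% of all genes) and 0 higher, with a median of -0.83 against 0.00 over all genes. Both niacin libraries lay below libraries 1 and 2 in 27 of the 28, a pattern that 15.4% of all genes showed. They also lay below library 3 in 11 of the 28, against 7.16% of all genes below all 3. The exception to the 27 was the chemokine gene Cxcl9, whose only reads were in 1 niacin library (0.386 CPM). Library 3 lay below the niacin mean in 17 of the 28, and in 9547 of all 16882 genes. In bulk RNA, fewer cells that express these genes and less RNA per cell cannot be told apart.

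Stat2, whose product is part of the complex that binds the ISRE, had 115 and 124 CPM with niacin, against 164, 195 and 143 CPM without. The groups did not overlap, and library 3 was the lowest of the libraries without niacin. The log2 fold change was -0.49 (SE 0.16, unadjusted p = 0.00708), and -0.59 (SE 0.15, unadjusted p = 0.00109) without library 3. By edgeR the adjusted p of Stat2 was 0.608, and 0.745 without library 3.

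Irf1 (chromosome 11, 53770014 to 53778374) had 655 and 677 CPM with niacin, against 920.1, 1073 and 879.7 CPM without. Here library 3 sat with the other libraries without niacin, and the niacin libraries were the lowest of the 5. Its log2 fold change was -0.52 (SE 0.13, unadjusted p = 0.000815) and -0.58 (SE 0.13) without library 3. Samhd1, which encodes an enzyme that degrades deoxynucleotides and restricts viruses, had 807 and 801 CPM with niacin, against 1443, 1747 and 745 CPM without. For Samhd1 library 3 was below the niacin libraries, and libraries 1 and 2 were far above them. Its log2 fold change was -0.71 (SE 0.25) with library 3 and -0.99 (SE 0.19, unadjusted p = 4.09e-05) without it.

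The GBP genes lie in clusters on chromosomes 3 and 5, and their sequences are similar, so reads may be shared between neighbours and single values are uncertain. Gbp2 had 360.4 and 415 CPM with niacin, against 849.9, 881 and 344 CPM without. Gbp8 had 145 and 157 CPM with niacin, against 294, 334 and 148 CPM without. In both genes libraries 1 and 2 stood well above the niacin libraries (niacin over no niacin 0.448-fold for Gbp2 and 0.482-fold for Gbp8 without library 3), and library 3 overlapped the niacin range or lay below it. Gbp10 had 15.5 and 21.0 CPM with niacin, against 66.0, 71.9 and 35.7 CPM without, and its groups did not overlap. The log2 fold changes without library 3 were -1.16 (SE 0.28) for Gbp2, -1.05 (SE 0.22) for Gbp8 and -1.92 (SE 0.43) for Gbp10. All 10 GBP genes of the list were lower without library 3 at an unadjusted p under 0.05 (1.47% of all genes). With library 3, Gbp2, Gbp4, Gbp8 and Gbp10 were (6.68% of all genes).

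The immunity-related GTPases, which like the GBPs are induced by interferon gamma and target vacuoles that hold pathogens, had the same library pattern. Igtp had 966 and 1051 CPM with niacin, against 1669.5, 1880.3 and 678 CPM without. Irgm1 had 535 and 518 CPM with niacin, against 883, 1023 and 275 CPM without. In both genes library 3 was the lowest of all 5, and the niacin libraries lay between it and libraries 1 and 2. The log2 fold change of Igtp was -0.48 (SE 0.28, unadjusted p = 0.0998) with library 3 and -0.82 (SE 0.19, unadjusted p = 0.000309) without it. Il18bp, which encodes a secreted inhibitor of interleukin-18, had 5.21 and 7.99 CPM with niacin, against 17.2, 15.4 and 8.22 CPM without, with no overlap.

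**Figure D1:**
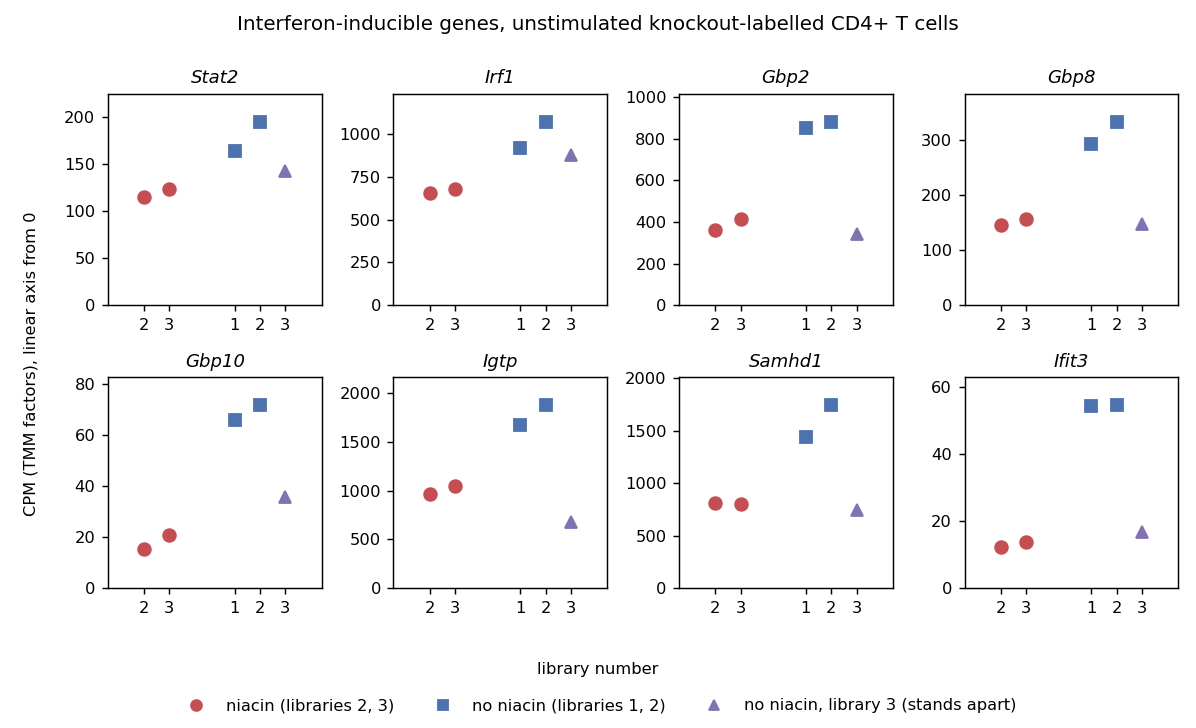
Levels (CPM, linear axes from 0) of 8 interferon-inducible genes in each of the 5 libraries, with the 2 niacin libraries on the left of each panel and the 3 without niacin on the right. Stat2, Irf1, Gbp10 and Ifit3 show niacin libraries below all 3 others, while in Gbp2, Gbp8, Igtp and Samhd1 library 3 lies at or below the niacin level.

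Promoters of interferon-inducible genes carry short elements that STAT and IRF proteins bind, so the upstream sequence of 4 members is shown. The letters TTTCNNTTTC (ISRE-like) and TTCNNNGAA (GAS-like) were searched on both strands in the 250 bases before each gene's start, taken from RefSeq (GRCm38.p6, plus strand for these 4). The ISRE-like letters occurred in 11 of the 18 interferon gamma and GBP genes with a promoter in the table (61.1%), against 3.46% of all 27025 genes. The GAS-like letters occurred in 9 of the 18 (50%), against 8.13% of all genes. Capitals mark the ISRE-like matches in Gbp7, Igtp and Ifit3 and the GAS-like match in Irf1, and these matches overlapped no match of the other motif searched. A match describes the letters only and is not a known site. The windows are chr3:142530086-142530335 (Gbp7), chr11:58199306-58199555 (Igtp), chr19:34583279-34583528 (Ifit3) and chr11:53769764-53770013 (Irf1).
Gbp7: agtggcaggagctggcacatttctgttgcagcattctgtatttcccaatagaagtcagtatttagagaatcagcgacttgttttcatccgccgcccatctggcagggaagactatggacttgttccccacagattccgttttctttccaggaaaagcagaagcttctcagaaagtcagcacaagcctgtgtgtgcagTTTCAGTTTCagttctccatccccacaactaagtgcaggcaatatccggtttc
Igtp: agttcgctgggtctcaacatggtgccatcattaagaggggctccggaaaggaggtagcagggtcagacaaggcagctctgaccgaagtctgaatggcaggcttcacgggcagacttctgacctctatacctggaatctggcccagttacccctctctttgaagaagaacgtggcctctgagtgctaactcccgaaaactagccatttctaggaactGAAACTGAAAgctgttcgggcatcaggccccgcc
Ifit3: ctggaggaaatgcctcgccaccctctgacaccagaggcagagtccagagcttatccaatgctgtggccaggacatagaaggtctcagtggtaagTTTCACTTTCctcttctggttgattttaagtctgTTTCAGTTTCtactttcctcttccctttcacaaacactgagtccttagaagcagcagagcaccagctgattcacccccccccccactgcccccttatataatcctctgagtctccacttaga
Irf1: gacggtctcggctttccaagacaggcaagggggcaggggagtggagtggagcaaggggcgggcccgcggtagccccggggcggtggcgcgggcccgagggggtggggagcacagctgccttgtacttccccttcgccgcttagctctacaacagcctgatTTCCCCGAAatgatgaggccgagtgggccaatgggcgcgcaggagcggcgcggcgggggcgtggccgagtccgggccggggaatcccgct
Gbp7, whose match lies at bases 198 to 207, had 361 and 369.8 CPM with niacin, against 633, 681 and 280.4 CPM without. The match in Igtp lies at bases 217 to 226 on the opposite strand, and Ifit3 holds 2 matches, at bases 95 to 104 and 129 to 138.

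The type I interferon response, the antiviral genes that interferon alpha and beta induce, had 41 members tested. With all 5 libraries 16 of the 41 were lower at an unadjusted p under 0.05 (6.68% of all genes) and 0 higher, with a median log2 fold change of -0.52. Without library 3 there were 24 lower (1.47% of all genes) and 0 higher, with a median of -0.69. Both niacin libraries lay below libraries 1 and 2 in 35 of the 41 (15.4% of all genes), and below all 3 in 15 (7.16% of all genes). Ifit3 had 12.2 and 13.8 CPM with niacin, against 54.2, 54.6 and 16.6 CPM without. Its relative Ifit1 had 19.5 and 23 CPM with niacin, against 54.3, 54.1 and 30.2 CPM without. Both genes showed no overlap between the groups, and library 3 was the nearest to the niacin level. Without library 3 the log2 fold change was -2.06 (SE 0.48) for Ifit3 and -1.35 (SE 0.37) for Ifit1. Part of the reads of Ifit3 may be shared with its near copy Ifit3b.

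Further members of this list also separated the groups. Irf7, the transcription factor that amplifies type I interferon, had 90.3 and 114 CPM with niacin, against 167, 185 and 211 CPM without. Isg15, a ubiquitin-like modifier, had 4.31 and 6.91 CPM with niacin, against 13.9, 11.4 and 11.4 CPM without. Bst2, which encodes tetherin, a protein that holds virions at the cell surface, had 69.0 and 78.5 CPM with niacin, against 100.02, 111 and 142 CPM without. In these 3 genes the niacin libraries were the lowest and library 3 was not low, with log2 fold changes of -0.88 for Irf7, -1.13 for Isg15 and -0.67 for Bst2. Oasl2 was one of the genes DESeq2 called without library 3, but its difference rested on a single library: 0.0427 and 0.502 CPM with niacin, against 43.8, 0.390 and 0 CPM without.

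The genes of interferons, their receptors and the receptor kinases were examined next. Ifng had 3.76 and 8.03 CPM with niacin, against 16.0, 4.68 and 3.34 CPM without, so the groups overlapped. Ifnb1 and Ifna4 held 0 counts in all 5 libraries. That allows up to 0.128 and 0.116 CPM in the niacin libraries and up to 0.257 CPM in library 3, taking 3 counts as the limit and covering counting error only. Ifngr1 had 528 and 685 CPM with niacin, against 710.2, 514 and 442 CPM without, and the receptor subunit gene Ifnar2 had 91.6 and 99.96 CPM with niacin, against 113, 104 and 137 CPM without. Among Ifngr1, Ifngr2, Ifnar1, Ifnar2, Jak1, Jak2 and Tyk2, only Ifnar2 had an unadjusted p under 0.05 (log2 fold change -0.29, SE 0.14; adjusted p = 0.621 by edgeR). In Ifnar2 the groups did not overlap. Without library 3 the unadjusted p of Ifnar2 was 0.154 in edgeR's quasi-likelihood test. In wild-type-labelled cells Ifnar2 had 97.5, 86.1 and 87.8 CPM with niacin, against 119, 112 and 98.9 CPM without, again with no overlap (log2 fold change -0.28, SE 0.12).

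Class I antigen presentation covers the heavy chains, their partner beta-2 microglobulin, the peptide transporter and the loading complex. Of 18 members tested, 9 were lower (6.68% of all genes) and 0 higher at an unadjusted p under 0.05, and 8 were lower without library 3 (1.47% of all genes). The median log2 fold change was -0.37, and -0.34 without library 3. H2-T23, which encodes the non-classical molecule Qa-1, had 618 and 623 CPM with niacin, against 827, 1032 and 1293 CPM without. Tap1, a subunit of the peptide transporter, had 621 and 634 CPM with niacin, against 827, 863 and 1329.9 CPM without. Tapbp, which encodes tapasin, had 874 and 914 CPM with niacin, against 1234, 1263 and 2108 CPM without. In all 3 the groups did not overlap, and library 3 was the highest, the opposite of its place in the GTPase genes. Both niacin libraries lay below all 3 others in 10 of the 18 members, against 7.16% of all genes. The log2 fold change of H2-T23 was -0.76 (SE 0.16, unadjusted p = 0.000119), the smallest p of any lower gene at 5 CPM or more, and -0.58 (SE 0.14) without library 3. By DESeq2 the adjusted p of H2-T23 was 0.0326, and by edgeR 0.608. Class I heavy chain genes are near copies of each other, so the split of reads between them is uncertain.

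The class II list had 10 members tested. At an unadjusted p under 0.05, 2 were lower with all 5 libraries (6.68% of all genes). Without library 3, 2 were lower (1.47% of all genes). The median log2 fold changes were -0.65 with all libraries and -0.81 without library 3. H2-DMa, which encodes a chain of the peptide-exchange molecule, had 46.5 and 61.7 CPM with niacin, against 77.8, 70.1 and 74.2 CPM without. Cd74, the invariant chain gene, had 7.94 and 10.9 CPM with niacin, against 44.3, 17.7 and 14.7 CPM without. Library 1 was the high library for Cd74. It also held 20.4 CPM of the B cell gene Igkc, against 0.341 and 0.154 CPM with niacin and 0.117 and 0 CPM in libraries 2 and 3. The part of other cells in the class II difference was not tested.

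NF-kB proteins in the canonical branch are held in the cytoplasm by inhibitors such as the product of Nfkbia, while Nfkb2 and Relb form the non-canonical branch and Bcl3 is a nuclear partner. Of 16 targets tested, 7 were lower at an unadjusted p under 0.05 (6.68% of all genes) and 6 without library 3 (1.47% of all genes), with 0 higher in either case. The medians were -0.47 and -0.34. Nfkb2 had 71.0 and 84.8 CPM with niacin, against 157, 118 and 307 CPM without. Relb had 49.5 and 54.0 CPM with niacin, against 97.6, 82.8 and 270.2 CPM without. Bcl3 had 25.7 and 35.5 CPM with niacin, against 78.9, 56.8 and 178 CPM without. The groups did not overlap in any of the 3, and library 3 was the highest. Both niacin libraries lay below all 3 others in 8 of the 16 targets, against 7.16% of all genes. Their log2 fold changes were -1.31, -1.53 and -1.77 with all libraries, and -0.82 (SE 0.25), -0.80 (SE 0.26) and -1.15 (SE 0.36) without library 3. Icam1, an adhesion molecule gene, had 61.7 and 81.3 CPM with niacin, against 109, 101 and 119 CPM without. Traf1, another target, had 293 and 314 CPM with niacin, against 280.4, 286 and 281 CPM without (log2 fold change 0.10, SE 0.16). The loose kappaB letters GGGNNNNNCC were found upstream of 11 of the 12 NF-kB targets in the promoter table (91.7%) and of 48.7% of all genes.

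**Figure D2:**
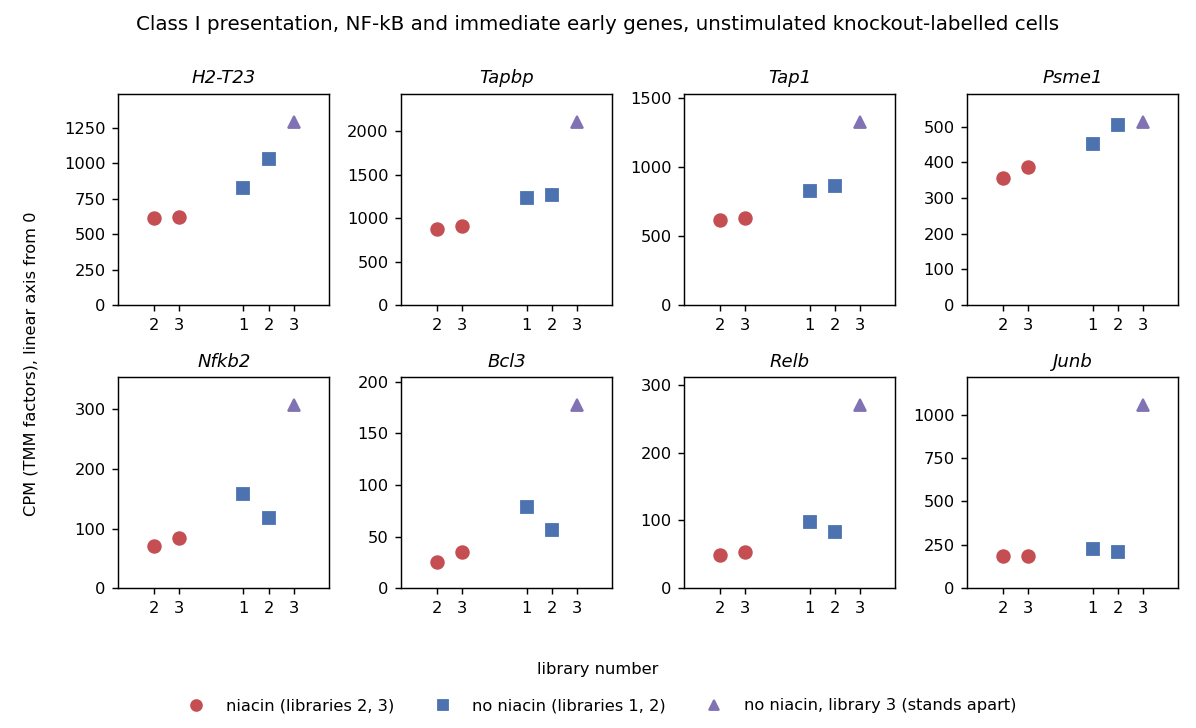
Levels (CPM, linear axes from 0) of 4 class I presentation genes, 3 NF-kB genes and the immediate early gene Junb in the 5 libraries, with the 2 niacin libraries on the left of each panel. Library 3 (triangles) is the highest in all 8 panels, and in Junb libraries 1 and 2 lie close to the niacin libraries.

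Other lists had most of their lower members only while library 3 was included. The counts here are at an unadjusted p under 0.05 in edgeR. At that mark 6.68% of all genes were lower with all libraries, and 1.47% without library 3. Immediate early genes, the first transcription factors made after a signal, had 6 of 17 members lower with all libraries and 0 without library 3, with medians of -0.50 and -0.02. Junb had 186 and 188 CPM with niacin, against 228, 210.1 and 1057 CPM without, so library 3 alone was high. STAT5 and IL-2 responsive genes had 7 of 20 lower with all libraries and 1 without. That gene was Pim2, a survival kinase gene, with 185 and 172 CPM with niacin, against 228, 270.0 and 241 CPM without, and no overlap. Socs1, the inhibitor of cytokine receptor signalling, had 386 and 508 CPM with niacin, against 634, 606 and 3678 CPM without. The list of ATF4 and stress genes had 6 of 32 lower with all libraries and 1 without library 3. The lower gene was Wars, a tRNA synthetase gene that interferon gamma also induces, with 152 and 183 CPM with niacin, against 256, 256 and 288 CPM without.

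**Figure D3:**
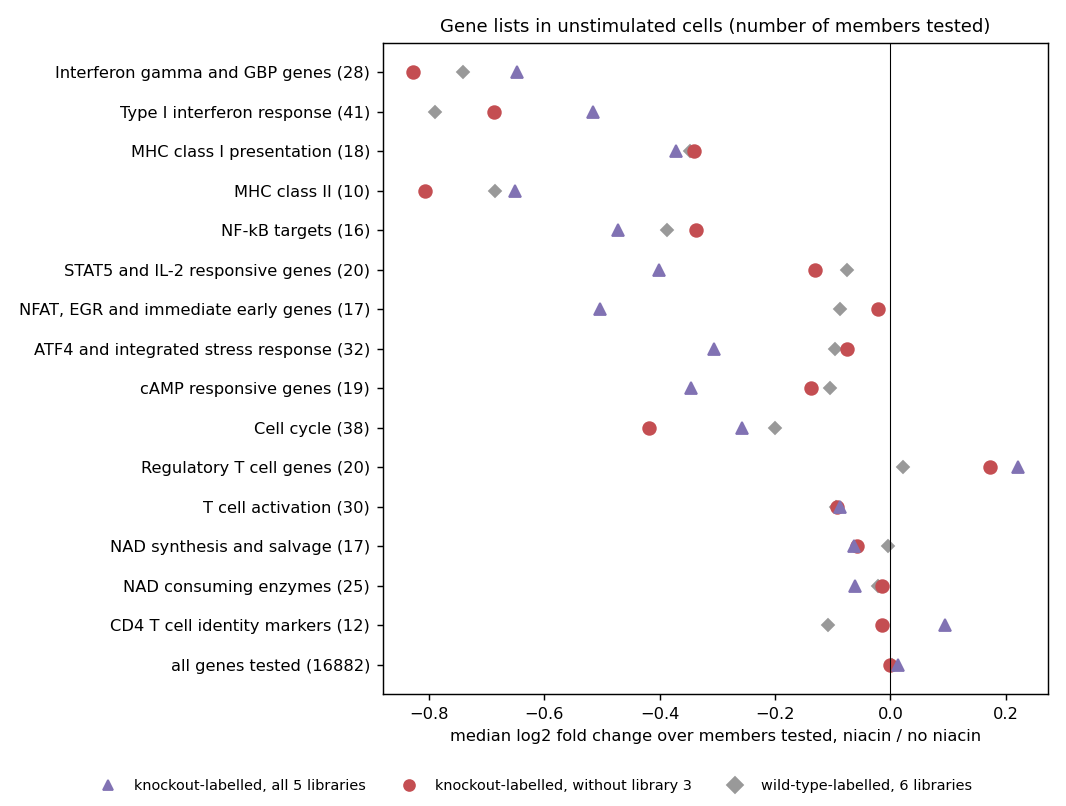
Median log2 fold change (niacin over no niacin) of 15 gene lists and of all genes tested, for unstimulated knockout-labelled cells with all 5 libraries (triangles), without library 3 (circles) and for unstimulated wild-type-labelled cells (diamonds). The interferon lists are at or below -0.52 in all 3 settings, while the immediate early list is at -0.50 with library 3 and at -0.02 without it.

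**Figure D4:**
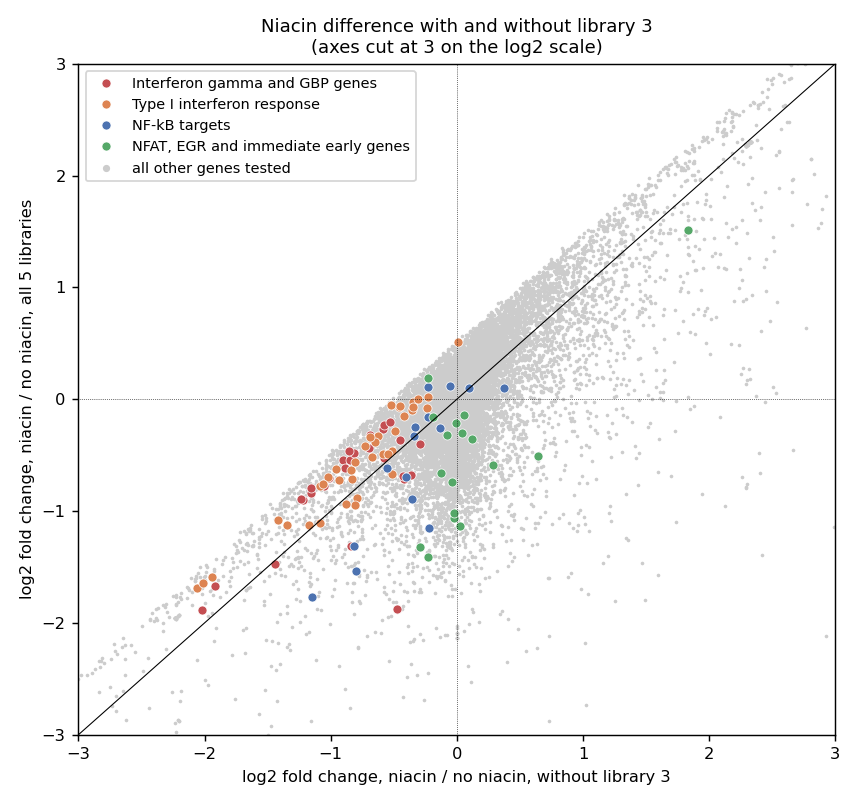
Log2 fold change of each gene with all 5 libraries (vertical axis) against that without library 3 (horizontal axis), both cut at 3 on either side, with the line of equal values. Most interferon genes lie left of 0 and above the line, and most immediate early genes lie near 0 on the horizontal axis and below 0 on the vertical one.

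Genes of NAD synthesis and salvage, taken as a list, showed little difference between the groups. Of 17 synthesis and salvage genes tested, 0 had an unadjusted p under 0.05 with or without library 3, and the medians were -0.06 and -0.06. Naprt had 1.62 and 1.51 CPM with niacin, against 1.36, 1.44 and 3.94 CPM without, so library 3 alone was high. Nampt had 61.4 and 59.2 CPM with niacin, against 82.4, 89.2 and 44.1 CPM without, with library 3 the lowest (log2 fold change -0.26, SE 0.29, and -0.51, SE 0.27, without library 3). Of 25 genes for enzymes that use NAD, 2 were lower with all libraries, a share near the 6.68% of all genes, and 4 without library 3, against 1.47% of all genes. The 4 encode ADP-ribosyltransferases: Parp3, Parp9, Parp10 and Parp14. Parp9, an interferon-inducible member, had 147 and 147 CPM with niacin, against 211, 279 and 102 CPM without. Parp3, which acts in DNA repair, had 48.6 and 48.6 CPM with niacin, against 68.2, 70.7 and 92.8 CPM without. Parp1, the main nuclear enzyme of the family, had 149 and 144 CPM with niacin, against 146, 149.8 and 158 CPM without, and Sirt1 also overlapped between the groups.

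Of the receptors and carriers for niacin and related acids, 9 of 15 genes passed the filter on low counts. The lactate receptor gene Hcar1 held 0 counts in all 5. Ffar2, whose product senses acetate and propionate, held 3 and 12 counts with niacin, against 20, 25 and 12 without, or 0.128 and 0.463 CPM against 0.718, 0.974 and 1.03 CPM. The niacin libraries were the lower ones, at levels where the error was large (log2 fold change -1.58, SE 1.29). Bsg, the chaperone gene of the monocarboxylate carriers, was the 1 member of the list with an unadjusted p under 0.05 in edgeR (log2 fold change -0.48, adjusted p = 0.608), with 187 and 209 CPM with niacin, against 235, 204 and 389 CPM without. Without library 3 its log2 fold change was -0.15 (SE 0.13).

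Genes that define CD4+ T cells were expressed at similar levels in all but library 3. The 12 identity markers summed to 5628 and 5806 CPM with niacin, against 5767, 5828 and 4572 CPM without. Cd4 had 558 and 504 CPM with niacin, against 549, 577 and 400.3 CPM without. Lck, the kinase bound to CD4, had 1247 and 1273 CPM with niacin, against 1264, 1268 and 1173 CPM without. Of 20 markers of regulatory T cells tested, 2 were higher and 1 lower at an unadjusted p under 0.05, and 2 were higher and 0 lower without library 3, where 1.27% and 0.999% of all genes were higher. Ctla4, an inhibitory receptor gene, had 13.9 and 12.2 CPM with niacin, against 9.66, 9.47 and 4.28 CPM without. Nt5e, which encodes the ectoenzyme CD73, had 128 and 149 CPM with niacin, against 106, 93.7 and 64.5 CPM without, and neither gene's groups overlapped. Without library 3 the second of the higher genes was Nrp1, a surface receptor gene, with 92.3 and 124 CPM with niacin, against 70.1, 58.1 and 98.8 CPM without, where library 3 overlapped. The lower gene with all libraries was Tgfb1, the gene of a suppressive cytokine, with 128 and 149.5 CPM with niacin, against 190.1, 146 and 616 CPM without. Library 3 was the high one for Tgfb1, and the groups overlapped. Foxp3, the lineage factor, had 211 and 202 CPM with niacin, against 176, 160.4 and 191 CPM without (log2 fold change 0.23, SE 0.16, unadjusted p = 0.171). Both niacin libraries lay above libraries 1 and 2 in 9 of the 20, against 15.8% of all genes.

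Cell cycle genes were lower on average without clear separation. Without library 3, all 38 tested had a negative log2 fold change, with a median of -0.42, yet 0 of them had an unadjusted p under 0.05, and both niacin libraries lay below libraries 1 and 2 in 3 of the 38, against 15.4% of all genes. Mki67, a marker of dividing cells, had 92.3 and 111 CPM with niacin, against 165, 93.1 and 107 CPM without, so library 1 alone was high. With all 5 libraries 2 of the 38 were lower, a share below the 6.68% of all genes. These were E2f1 and Plk1, in which libraries 1 and 3 were the high ones.

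Summed levels of markers of other cell types overlapped between the groups. B cell markers summed to 818 and 709 CPM with niacin, against 818, 845 and 419.5 CPM without. Nearly all of this was Ighm (803 and 693 CPM with niacin, against 777, 829 and 408 CPM without), while the B cell factor gene Pax5 had 0 counts in all 5 libraries. NK and gamma delta T cell markers summed to 141 and 239 CPM with niacin, against 198, 139 and 192 CPM without. Myeloid and dendritic cell markers summed to 109.9 and 159 CPM with niacin, against 163, 112 and 134 CPM without, with S100a8, S100a9 and Clec9a at 0 in all 5. CD8 markers summed to 21.7 and 22 CPM with niacin, against 22.1, 22.8 and 7.88 CPM without. Of these lists, without library 3, the B cell list had 1 of 11 tested members lower at an unadjusted p under 0.05 (Igkc). The myeloid list had 1 of 9 higher (Lyz2, with reads in niacin library 3 and in library 3 without niacin). Of all genes, 1.47% were lower and 0.999% higher without library 3. In library 3, the B cell, CD8 and CD4 sums and the GTPase genes were all low, and whether these go together was not tested.

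Higher genes were fewer, and none passed an adjusted p of 0.05 in edgeR. By smallest p at 5 CPM or more, the first was Cdc25b, which encodes a phosphatase that starts mitosis. It had 283 and 276 CPM with niacin, against 199, 213 and 185 CPM without, with no overlap and close replicates (log2 fold change 0.49, SE 0.13, unadjusted p = 0.00154, and 0.44 without library 3). Cpt1a, which encodes the enzyme that brings fatty acids into mitochondria, had 128 and 144 CPM with niacin, against 92.8, 103 and 98.0 CPM without. Its log2 fold change was 0.47 (SE 0.17), and 0.47 without library 3. Golm1, a Golgi membrane protein gene, had 71.5 and 79.8 CPM with niacin, against 53.3, 51.0 and 44.0 CPM without. Lclat1, Bpgm, Galm, Tnfrsf22, Tbc1d14, Tmco3, Lpar6 and Ehmt1 complete the first 12 with Ctla4 and Nt5e, with log2 fold changes from 0.37 (Ehmt1) to 1.00 (Lclat1). In 7 of these 8 library 3 was the lowest of the libraries without niacin, the exception being Ehmt1. Without library 3 the first 12 also held Prr5l, Trip10, Prnp, Gss, Mapk11, Dubr and Alyref2, with log2 fold changes from 0.50 (Gss) to 1.27 (Prr5l). Prr5l had 5.85 and 5.06 CPM with niacin, against 1.87, 2.65 and 8.39 CPM without, so library 3 was above the niacin libraries.

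Among the lower genes outside the lists at 5 CPM or more, leaving out predicted and clone-named genes such as 4933412E12Rik, Akap1, Pml, Plscr3 and Calhm6 had the smallest p. Pml, an interferon-inducible gene for the scaffold of nuclear bodies, had 116 and 134 CPM with niacin, against 199.9, 205 and 235 CPM without. Its log2 fold change was -0.77 (SE 0.18), and -0.70 (SE 0.18) without library 3, and its adjusted p was 0.0336 by DESeq2. Akap1, which tethers protein kinase A to mitochondria, had 2.13 and 2.08 CPM with niacin, against 5.56, 5.81 and 14.3 CPM without (log2 fold change -1.99, SE 0.43, and -1.43, SE 0.37, without library 3). Plscr3, a phospholipid scramblase gene, had 36.2 and 32.4 CPM with niacin, against 45.3, 50.6 and 79.9 CPM without. Calhm6 had 41.4 and 46.7 CPM with niacin, against 65.7, 72.3 and 152 CPM without. The groups did not overlap in these 4 genes, which were picked by their small p. Both niacin libraries lay below all 3 others in 7.16% of all genes.

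The same treatment was compared in unstimulated cells labelled wild type, and the 2 comparisons share no library. Both come from the 1 model of all 23 libraries, and the lists were chosen with earlier results of these data known. The counts over the lists are therefore no independent check. In wild-type-labelled cells edgeR called 0 genes (0%), and at an unadjusted p under 0.05 168 (0.995%) were higher and 289 (1.71%) lower of 16882. The interferon gamma and GBP list had 21 of 28 lower, with a median of -0.74, and the type I list had 25 of 41 lower, with a median of -0.79. Irf1 had 760.1, 779 and 560.4 CPM with niacin, against 1093, 1060.5 and 1104 CPM without, in wild-type-labelled cells (log2 fold change -0.63, SE 0.12). Gbp10 had 46.7, 28.8 and 11.2 CPM with niacin, against 96.9, 94.3 and 124 CPM without. Ifit3 had 33.1, 19.3 and 10.5 CPM with niacin, against 87.2, 72.4 and 99.8 CPM without. The groups did not overlap in any of these 3 genes, with all niacin libraries the lower ones, as in 882 of all 16882 genes. Both knockout-labelled niacin libraries below libraries 1 and 2, together with all 3 wild-type-labelled niacin libraries below all 3 without, held for 20 of the 28 and 23 of the 41, against 1.95% of all genes.

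The niacin difference under the knockout label was then set against that under the wild-type label by the test of the difference itself. Of 16882 genes edgeR called 1 higher (0.00592%), Fzd7, and 0 lower. At an unadjusted p under 0.05, 96 (0.569%) had a higher and 230 (1.36%) a lower difference, 326 (1.93%) in all. Without library 3 edgeR called 0, and 120 were higher and 72 lower, 192 (1.14%) in all. With all libraries, none of the 28 interferon gamma and GBP genes was among the 326, and 1 of the 41 type I genes was, Oas1g, whose only reads in these 5 libraries were 0.116 CPM in 1 niacin library. For Stat2 the knockout-labelled difference minus the wild-type-labelled one was 0.15 on the log2 scale (SE 0.21), for Gbp2 0.31 (SE 0.44) and for Ifit3 0.35 (SE 0.66). Without library 3 these differences were 0.052 (SE 0.20) for Stat2, -0.0092 (SE 0.35) for Gbp2 and -0.016 (SE 0.60) for Ifit3. These errors are wide, and the test does not show that the labels respond alike. Akap1 had a difference of -1.98 (SE 0.56, unadjusted p = 0.00189, adjusted p = 1.00 by edgeR), and of -1.42 (SE 0.48) without library 3, with 6.68, 4.15 and 2.73 CPM with niacin and 5.93, 4.39 and 3.30 CPM without in wild-type-labelled cells.

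Stimulation gave a second contrast, between unstimulated and stimulated knockout-labelled cells. In stimulated knockout-labelled cells edgeR called 1 gene higher (0.00592%) and 0 lower, and at an unadjusted p under 0.05 403 genes (2.39%) were higher and 479 (2.84%) lower. There the interferon gamma and GBP list had 0 of 28 lower at an unadjusted p under 0.05, with a median of -0.08. The type I list had 29 of 41 lower there, with a median of -0.86. The test of the difference (unstimulated minus stimulated) called 0 genes by edgeR of 16882, with 395 (2.34%) higher and 748 (4.43%) lower at an unadjusted p under 0.05, 1143 (6.77%) in all. Without library 3 it called 0 genes, with 402 higher and 311 lower, 713 (4.24%) in all, so the excess of lower differences was not seen. It gave 7 of the 28 interferon gamma and GBP genes (Irf1, Irf8, Gbp10, Socs1, Psmb10, Tap1 and Tap2) and 4 of the 41 type I genes. Without library 3 it gave 13 of the 28 and 5 of the 41. For Irf1 the log2 fold change was -0.52 (SE 0.13) unstimulated and 0.19 (SE 0.12) stimulated, a difference of -0.72 (SE 0.18, unadjusted p = 0.000631, adjusted p = 0.718 by edgeR), and of -0.77 (SE 0.16) without library 3. For Ifit1 it was -1.12 (SE 0.37) unstimulated and -0.96 (SE 0.32) stimulated, a difference of -0.16 (SE 0.48), and of -0.39 (SE 0.47) without library 3. In NF-kB targets 5 of 16 differed at an unadjusted p under 0.05 (Nfkbie, Nfkb2, Relb, Bcl3 and Ltb), and library 3 was the highest library in each of the 5. Without library 3, 2 of the 16 did (Relb and Bcl3).

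**Figure D5:**
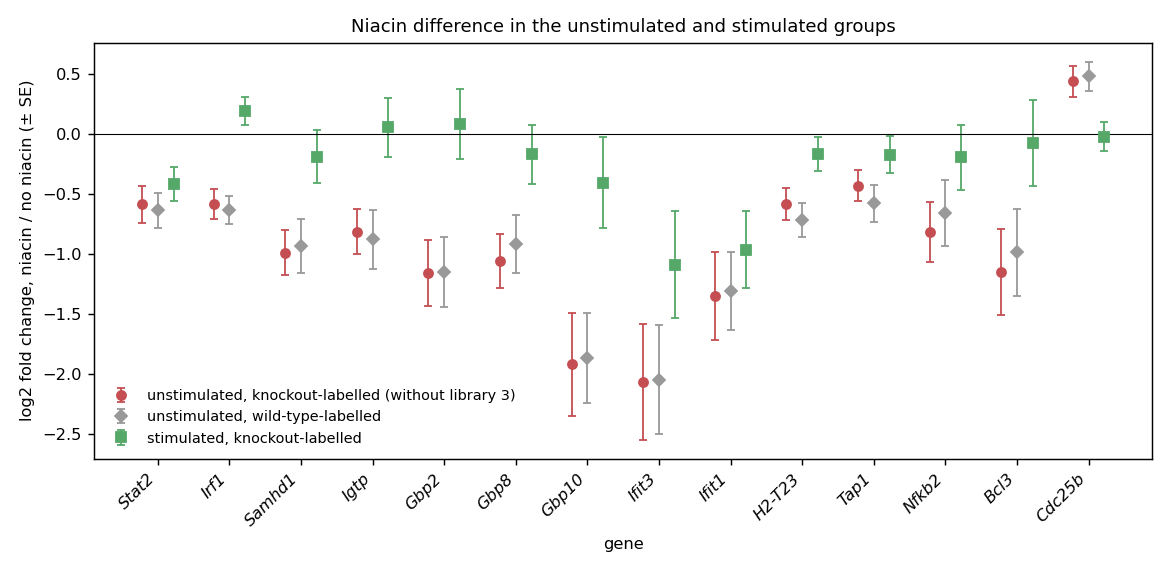
Log2 fold change (niacin over no niacin, with SE) of 14 genes in unstimulated knockout-labelled cells without library 3, in unstimulated wild-type-labelled cells and in stimulated knockout-labelled cells. The error bars of the 2 unstimulated groups overlap for every gene shown, and in stimulated cells Ifit3 and Ifit1 are the genes furthest below 0.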

How the data were processed

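RNA from sorted T cells was amplified with SMART-seq V4 and sequenced as paired reads on a HiSeq, per the labels' protocols. The authors deposited raw read counts per gene for 23 libraries. The submitters' processing notes name Trimmomatic 0.38, STAR 2.7.0e, featureCounts 1.6.3 and the builds GRCm38.p5 and mm10. No source used here states the strand setting or annotation release, and without strand reads of overlapping genes cannot be told apart.

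Counts of all 23 libraries entered 1 model with a term per group (R 4.3.3, edgeR 4.0.16, quasi-likelihood test, TMM factors, 15 residual degrees of freedom, Benjamini-Hochberg adjustment). Genes passed filterByExpr with a minimum count of 10, which left 16882. The common biological coefficient of variation was 27.4%. CPM used TMM-scaled totals. Each SE was back-calculated from edgeR's test, as the absolute log2 fold change over the square root of the F value. Alternatives were DESeq2 1.42.0, limma 3.58.1 (voom with quality weights), other scaling, no filter, a replicate block, the compared groups alone and each library left out. The code was tested on simulated data.

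The members, the 54 gene lists and the rules were chosen with earlier results of these data known. Of the 955 symbols in the lists, 3 were not matched. Genes named are the 12 per direction with the smallest p at 5 CPM or more (predicted and clone-named genes left out), up to 2 per list, 5 genes of niacin receptors and NAD synthesis, and the 12 per direction without library 3, a rule added after the data were seen. Others, among them genes named to complete a count, were chosen after their values were seen. Results of a few genes are not reported here.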

Additional observations from a re-analysis of the deposited data

Results flagged for a closer look

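Fzd7, a Wnt receptor gene on chromosome 1, was the single gene whose niacin difference differed between the labels in edgeR's test of the difference itself, by 10.54 on the log2 scale (SE 1.59, adjusted p = 0.0444). Its counts were 2 and 24 with niacin, against 0, 0 and 0 without, in knockout-labelled cells. They were 1, 0 and 1 with niacin, against 16, 7 and 8 without, in wild-type-labelled cells. A fitted fold change against libraries at 0 depends on the prior count and is no bound, and its SE carries the same limit. Leaving out 1 library at a time, the call held only without niacin library 2, and the adjusted p ran from 0.000424 to 1. With the replicate number as a block the adjusted p was 0.0575. Fzd7 is below the 5 CPM limit for named genes and was named after its values were seen.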

How the results depend on the processing

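The 0 calls per direction stayed 0 in edgeR with RLE size factors. The labels do not say what a replicate number marks, and the groups share 2 (correlation of deviations 0.121), so the numbers were not used as pairs. A replicate block gave 0 higher and 0 lower, and 0 genes by label, where Fzd7 was lost. DESeq2 called 1 higher and 6 lower, 3 lower list members and 1 gene lower by stimulation, while voom called 4 lower, 3 lower list members and 0 by label. Without the filter on low counts there were 18 higher and 400 lower of 30367 genes, and 1 and 64 list members. By label there were 9 and 76 genes, and by stimulation 46 and 199. Only 3 of the 418 calls are genes the filter removes. In that fit the median prior degrees of freedom of the quasi-likelihood test were infinite, against 5.61 with the filter. A gene's own spread then has little weight in its p-value. The compared groups alone gave 0 higher, 0 lower and 0 by label. Leaving out 1 library at a time gave 0 to 1 higher, 0 to 1 by label and 0 to 1 by stimulation. Without library 3, fits added after the data were seen gave 7 lower, 6 lower list members, and 1 higher and 3 lower by stimulation (DESeq2); 4 lower, 3 lower list members and 0 by label (voom); and 9 lower and 8 lower list members (compared groups alone). The cause was not tested. Genes at an unadjusted p under 0.05 numbered 415 without library 3 and 3021 without library 2 (no niacin), against 1343 with all. Naprt (-0.48) changed sign: 0.11 by voom, and 0.17, 0.16 and 0.16 in the added fits. Leaving out 1 library at a time, the log2 fold change ran from -0.75 to 0.16 for Naprt, -8.30 to 0.13 for Oasl2, -5.45 to 1.61 for Igkc, -0.44 to 0.016 for Parp14, -0.15 to 0.82 for Trip10 and -6.50 to 9.34 for Lyz2. Ifngr1, Ifngr2, Ifnar1, Cd4, Lck and Ighm, given as levels, had fold changes near 0 whose sign differed between fits. At 2 against 3 libraries, small changes are limited by spread and low genes by depth.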

Other observations

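Targets of the aryl hydrocarbon receptor, a ligand-activated transcription factor, were examined after their values were seen. Cyp1a1, its classic target, held 17 and 29 counts with niacin, against 0, 0 and 0 without, in knockout-labelled cells (unadjusted p = 0.00462, adjusted p = 0.608 by edgeR). Ahrr, the repressor of the receptor, had 1.66 and 4.32 CPM with niacin, against 0.539, 1.09 and 1.37 CPM without. Tiparp, a further target, had 51.8 and 52.2 CPM with niacin, against 40.1, 44.1 and 24.6 CPM without. Nqo1, which NRF2 also controls, had 5.93 and 6.22 CPM with niacin, against 3.20, 3.47 and 1.54 CPM without. In knockout-labelled cells the niacin libraries lay above all 3 others in these 4 genes, as they did in 1586 of all 16882 genes. The unadjusted p by edgeR's quasi-likelihood test was 0.253 for Ahrr, 0.0888 for Tiparp and 0.0137 for Nqo1. In wild-type-labelled cells the groups overlapped for Ahrr, Tiparp and Nqo1. Cyp1a1 held 13, 24 and 9 counts with niacin there, against 3, 6 and 0 without, with no overlap. Its level was under 1 CPM in each of those libraries. The receptor gene Ahr overlapped in knockout-labelled cells, with 7.51 and 11.9 CPM with niacin, against 5.49, 8.26 and 23.7 CPM without. Cyp1b1 held 0 and 9 counts with niacin, against 0, 0 and 0 without.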
